A study of Mus musculus with 30 samples.

Results

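The comparison described here set preputial glands of Cyp1a1 knockout mice against those of wild-type mice at week 0, before any benzo[a]pyrene (BaP) was eaten. It rests on 4 of the 30 arrays of the series: 2 labelled wild type and 2 labelled Cyp1a1 knockout at 0 weeks, chosen by their titles. All 4 mice were males on the B6 background, and the labels call the tissue preputial gland duct, while the protocol describes whole preputial glands freed of surrounding tissue. The diet was started at 6 weeks of age, and the week 0 mice were killed at its start. The labels do not say how the Cyp1a1 allele was made or whether the genotypes were littermates, and nothing says whether samples of a group came from separate cages or litters. The study followed squamous cell carcinoma in the duct, and its further groups were fed BaP, a carcinogen of combustion smoke, at about 12.5 mg/kg/day for 4, 8, 12 or 16 weeks. The 16 wild-type and Cyp1a1 knockout arrays from those weeks are used here as other mice of the same genotypes. Cyp1a1/1b1 double-knockout mice formed the third genotype.

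CYP1A1, CYP1A2 and CYP1B1 are the cytochrome P450 enzymes of the Cyp1 family, which oxidise polycyclic aromatic hydrocarbons such as BaP both to reactive and to excretable products. Their genes are switched on by the aryl hydrocarbon receptor (AhR), which pairs with ARNT and binds a short DNA motif with the core GCGTG. The preputial gland is a large modified sebaceous gland that makes lipid and pheromone-carrying secretions and empties through a duct of stratified epithelium.

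Promoter sequences are shown for 4 genes because the results below turn on them: Cyp1a1, the targeted gene; Cyp1b1, its family member that differed between the genotypes in the later mice; and Stfa1 and Stfa3, stefin A genes, of which Stfa1 had the largest positive difference of any gene. Each run is the 250 bases before the RefSeq start (build GRCm38.p6), 5′ to 3′ on the gene's own strand. In Cyp1a1 (chr9:57697363-57697612, plus strand) and Cyp1b1 (chr17:79715062-79715311, minus strand) the capitals mark the letters GCGTG or the reverse complement CACGC. In Stfa1 (chr16:36276898-36277147, plus strand) and Stfa3 (chr16:36455393-36455642, minus strand) the capitals mark their longest shared run.
Cyp1a1: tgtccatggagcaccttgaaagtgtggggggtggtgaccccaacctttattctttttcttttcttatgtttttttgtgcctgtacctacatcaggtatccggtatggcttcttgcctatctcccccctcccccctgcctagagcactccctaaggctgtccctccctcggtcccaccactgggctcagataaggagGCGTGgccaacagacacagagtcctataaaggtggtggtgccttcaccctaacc
Cyp1b1: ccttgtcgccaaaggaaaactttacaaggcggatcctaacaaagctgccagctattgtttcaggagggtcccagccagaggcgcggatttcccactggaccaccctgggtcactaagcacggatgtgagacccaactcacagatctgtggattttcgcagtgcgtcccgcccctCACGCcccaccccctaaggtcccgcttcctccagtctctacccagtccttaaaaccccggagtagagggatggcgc
Stfa1: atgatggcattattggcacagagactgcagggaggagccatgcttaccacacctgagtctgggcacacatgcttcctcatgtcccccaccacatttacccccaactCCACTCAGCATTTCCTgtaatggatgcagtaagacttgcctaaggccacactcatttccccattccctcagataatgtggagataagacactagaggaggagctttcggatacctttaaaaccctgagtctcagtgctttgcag
Stfa3: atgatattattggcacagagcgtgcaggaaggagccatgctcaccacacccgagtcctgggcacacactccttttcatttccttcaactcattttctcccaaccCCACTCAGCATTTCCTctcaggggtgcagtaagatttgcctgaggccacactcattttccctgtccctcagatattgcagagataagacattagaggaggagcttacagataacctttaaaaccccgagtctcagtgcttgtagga

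Cyp1a1 and Cyp1b1 each held 1 match to the core on either strand, at 54 and 76 bases before the start. Stfa3 held 1 match and Stfa1 held 0. The same letters occur in 28.2% of the 32851 promoter windows of this length, so a match describes the window and does not mark a bound site. The windows of Stfa1 and Stfa3 were identical at 211 of 246 bases aligned without gaps (85.8%), and their longest shared run, of 16 bases, occurred in 6 promoter windows of the table, all of them of genes named Stfa, Csta, Cstdc or, in 1 case, Gm7260.

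Values are RMA intensities on the log2 scale, so a difference of 1 is a doubling. The arrays of the knockout mice spanned a narrower range: the standard deviation of all log2 values was 1.98 and 2.08 in wild type and 1.78 and 1.86 in the knockout. Over all genes, which are not independent replicates, knockout replicate 2 correlated at 0.982 with wild-type replicate 1 but at 0.954 with knockout replicate 1, and the wild-type pair correlated at 0.980. The label descriptions number the wild-type arrays 1 and 2 and the knockout arrays 12 and 13, without saying what the numbers mean, so genotype and anything tied to these numbers cannot be told apart. Sebocyte markers were abundant in both genotypes, with means over 11 genes of 8.61 and 8.84 in the wild-type arrays and 7.86 and 8.13 in the knockout arrays. Basal keratinocyte genes were also well expressed, while male accessory gland markers had means of 3.13 to 3.79, below the median gene at 5.27. Sebaceous and epithelial markers were thus present in both genotypes.

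In glands taken before BaP, more genes were called lower than higher in the Cyp1a1 knockout, and those that fell were moderately to highly expressed. In a limma fit over the 20 wild-type and knockout arrays of all weeks, 136 of 18784 genes were called at an adjusted p under 0.05 (0.724%), 19 of them higher (0.101%) and 117 lower (0.623%) in the knockout. Among the called genes, Snap91 rose most, and Nprl2, Cyb5r3, Ttll1 and Myl9 fell most. A further description, without a test, counted genes as separated when both knockout arrays lay beyond both wild-type arrays, the means differed by at least 1 log2 unit and the higher mean was above the median gene. By this measure 603 genes (3.21%) were separated, 55 higher (0.293%) and 548 lower (2.92%) in the knockout. Non-overlapping arrays alone were common, at 10112 genes (53.8%).

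The calls depended on which arrays entered the fit. There were 0 calls without wild-type replicate 2 (1726 genes at an unadjusted p under 0.05), 0 without knockout replicate 1 (1664 unadjusted), and 972 without knockout replicate 2. There were also 0 when only the 4 week 0 arrays were fitted (2593 unadjusted) and 0 with all 30 arrays (1292 unadjusted), against 3650 unadjusted in the fit reported here. Without the second knockout array of week 12, which has a low range of values and enters only through the spread, 2926 genes were called, 1525 higher and 1401 lower. The excess of lower over higher calls was therefore not present in that fit.

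The difference also followed expression level, taken as the mean of the 4 week 0 arrays. Levels of gene lists given below are wild-type means, so a list that fell can belong to a lower band. Among genes with a mean level up to 4, the median difference was +0.38, among those between 4 and 5 it was +0.32, and between 6 and 7 it was −0.29. Of the 117 genes that fell, 1 had a level below the median gene, while 13 of the 19 that rose did. After the 30 arrays were forced to 1 distribution by quantile normalization, the medians of these 3 bands became 0.02, 0.02 and −0.04, and 36 genes were called (0.192%), 3 higher and 33 lower, 25 of them among the 136. All 136 called genes kept their direction there, against 14224 of 18784 over all genes. They had been picked by their differences in the same arrays, so this is not an independent check. With the range of each array (the standard deviation of its values) as a covariate instead, 651 genes were called, 357 higher and 294 lower, so the excess of lower calls was not present in that fit either.

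**Figure D1:**
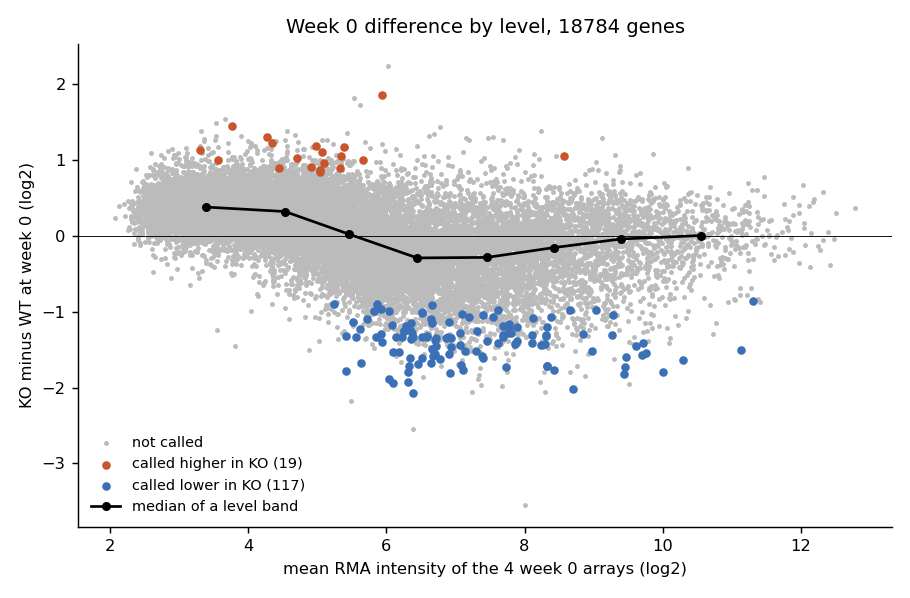
Knockout minus wild-type difference at week 0 (log2) against the mean intensity of the 4 arrays (log2), 1 point per gene, with the 19 genes called higher in orange, the 117 called lower in blue and band medians as a black line. The black line runs from +0.38 for the lowest band to −0.29 between levels 6 and 7 and back to 0.01 above 10.

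The targeted gene itself was weakly expressed before BaP. Cyp1a1 read 4.35 and 4.74 in wild type and 3.83 and 3.67 in the knockout, all below the median gene. The groups did not overlap, as in 18.4% of all genes in this direction. The difference of −0.79 ± 0.28 (standard error) did not pass (limma adjusted p = 0.157). Over weeks 4 to 16 it was −0.27 ± 0.14 (limma adjusted p = 0.212), with the genotypes apart at weeks 4 and 8 and overlapping at weeks 12 and 16. The double-knockout arrays of week 0 read 3.96 and 5.33. The labels do not say whether the probe set lies in the deleted part, so the reading is a weak check of the genotype.

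The other Cyp1 genes were close to wild type at this time. Cyp1b1, the family member most active outside the liver, read 6.52 and 6.20 in wild type and 6.66 and 6.69 in the knockout, a difference of 0.31 ± 0.28 (limma adjusted p = 0.541). Cyp1a2, mainly a liver enzyme, had means of 3.12 and 3.53 (wild type and knockout) and lay near the bottom of the scale in all 4 arrays. For both genes the knockout arrays were the higher pair, as in 35.5% of all genes, by less than the call threshold needs.

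Of the 16 measured genes of the Cyp1 family and AhR list, 1 fell, 0 rose and 15 were not called. Their median difference was −0.21 against 0.14 over all genes. However, their median wild-type level was 6.36, and all genes at levels 6 to 7 had a median of −0.29. The member that fell was Slc7a5, a large neutral amino acid transporter subunit: 7.55 and 7.57 in wild type, 6.00 and 6.45 in the knockout (−1.33 ± 0.23, limma adjusted p = 0.0227). The receptor gene Ahr differed by 0.41 and its partner Arnt by −0.32, neither called (limma adjusted p = 0.577 and 0.362). Aldh3a1, an aldehyde dehydrogenase and a known AhR target, read 6.50 and 7.05 against 5.84 and 5.70, and Cyp2s1, an epithelial P450, 6.53 and 6.19 against 5.05 and 5.84. Both sets of arrays were apart without overlap, as were 18.4% of all genes in this direction. Neither gene was called (limma adjusted p = 0.131 for each). Ahrr, which encodes the AhR repressor, differed by 0.51 from a wild-type mean of 3.18.

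The P450 genes outside the Cyp1 family gave 0 calls by limma among 36 measured (8 at an unadjusted p under 0.05), with a median difference of 0.24 that became −0.17 with a filter on low values. Their median wild-type level was 4.31, and the one separated gene was Cyp2f2, an airway-type P450 abundant in these glands, at 11.57 and 11.16 in wild type against 9.50 and 10.66 (−1.29 ± 0.43, limma adjusted p = 0.141).

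**Figure D2:**
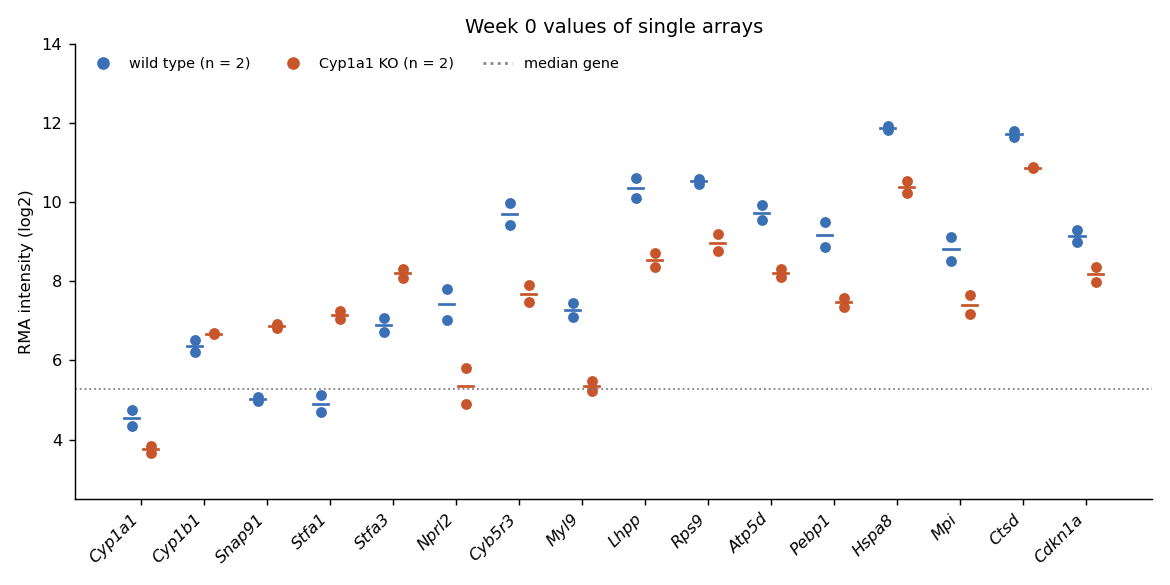
RMA intensity (log2) of 16 genes in the 2 wild-type (blue) and 2 Cyp1a1 knockout (orange) week 0 arrays, with group means as bars and the median gene as a dotted line. Snap91, Stfa1 and Stfa3 lie higher in both knockout arrays, and the genes from Nprl2 to Cdkn1a lie lower in both.

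Among the genes that rose, Snap91 had the largest difference and tied for the smallest adjusted p. It encodes the AP180 clathrin assembly protein, best known from nerve terminals. Snap91 read 5.06 and 4.97 in wild type and 6.81 and 6.93 in the knockout, and no wild-type array came near a knockout array. The difference of 1.85 ± 0.24 is 3.61-fold (limma adjusted p = 0.00736). In the double knockout at week 0, Snap91 read 5.84 and 5.04, below both Cyp1a1 knockout arrays. The gene lies on chromosome 9, as Cyp1a1 does, but not among the 50 measured genes nearest to Cyp1a1 on either side.

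The other 18 genes that rose were mostly at low levels. Tdg, the thymine DNA glycosylase gene of base excision repair, read 3.10 and 2.99 against 4.46 and 4.52 (limma adjusted p = 0.0431). Lilra6, a leukocyte receptor gene, read 3.66 and 3.81 against 4.95 and 4.98 (0.0227), and Arhgap4 4.59 and 4.45 against 5.72 and 5.52 (0.04). The neuronal pentraxin receptor gene Nptxr differed by 1.05 and the reproductive homeobox gene Rhox9 by 1.17. Olfr1346 and Olfr767, a pair of odorant receptor genes, and Nlrp9a were also among the 10 highest. The predicted gene Gm6981, at 8.11 and 7.97 against 9.37 and 8.81, was the one gene that rose from a level above 8. Apart from Gm6981, these readings were below or near the median gene in wild type, in the range where the median of all genes was above 0 (above). Of the 19 genes, 0 were called after quantile normalization, Snap91 included (limma adjusted p = 0.0595). All 19, which had been picked on the same arrays, kept their direction.

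The stefin A genes, which encode small inhibitors of cysteine proteases such as cathepsins in epithelium and leukocytes, gave the largest positive difference of any gene. Stfa1 read 5.12 and 4.69 in wild type and 7.05 and 7.25 in the knockout, a difference of 2.24 ± 0.57 or 4.73-fold that did not pass (limma adjusted p = 0.0729). Stfa3 read 6.73 and 7.06 against 8.31 and 8.09, a difference of 1.30 ± 0.35 (limma adjusted p = 0.0901). In both genes each knockout array stood above each wild-type array by more than 1 log2 unit. In the double knockout at week 0, Stfa1 read 5.43 and 3.84, below both Cyp1a1 knockout arrays. Stfa3 read 8.32 and 7.63 there, above both wild-type arrays. Their relatives Stfa2, Stfa2l1, Csta1, Csta2, Csta3 and Cstdc6 read between 2.24 and 4.37 in every array and differed by 0.14 to 0.84, none of them called, and Stfa2 and Stfa2l1 turned to −0.25 and −0.02 after quantile normalization, and Csta1 to −0.12 without knockout replicate 1. The promoter windows of Stfa1 and Stfa3 were similar (above), but transcript and probe sequences were not compared. Whether a probe set read more than 1 of these genes was not tested.

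Several other genes above the median level read higher in the knockout without passing. Eif4a2, a translation initiation helicase gene, read 8.40 and 8.55 against 10.30 and 9.22, Ptbp2, a splicing regulator gene, 7.42 and 6.68 against 8.39 and 8.24, and the long noncoding RNA gene Mir99ahg 8.06 and 7.04 against 9.18 and 8.69 (limma adjusted p = 0.0525, 0.0654 and 0.0558). No array of the knockout overlapped the wild type for these 3 genes, which also held in this direction for 35.5% of all genes.

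The genes that fell included the largest differences among called genes. Nprl2, a subunit of the GATOR1 complex that restrains mTORC1 when amino acids are short, read 7.03 and 7.81 in wild type and 4.91 and 5.80 in the knockout (−2.07 ± 0.33, limma adjusted p = 0.0175), the lowest difference among called genes. Cyb5r3, an NADH-cytochrome b5 reductase that feeds electrons to lipid desaturation and drug metabolism, read 9.43 and 9.98 against 7.47 and 7.90 (−2.02 ± 0.28, limma adjusted p = 0.00993). Both genes were separated by more than 1 log2 unit between the nearest arrays.

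Ttll1, a tubulin polyglutamylase gene, read 6.87 and 7.27 against 4.78 and 5.49. Myl9, the regulatory myosin light chain of smooth muscle and other contractile cells, read 7.45 and 7.10 against 5.23 and 5.47. Abhd14b, a hydrolase-fold protein gene, read 6.83 and 7.15 against 4.73 and 5.46. These 3 genes fell by 1.94, 1.93 and 1.89 log2 units (limma adjusted p = 0.0227, 0.03 and 0.0227).

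Lhpp, a phosphatase gene, was among the most highly expressed of the lowest 10 and read 10.11 and 10.60 against 8.36 and 8.71. Capns1, the shared small subunit of the calpain proteases, read 10.79 and 11.01 against 8.55 and 9.67. Kyat1, a kynurenine aminotransferase gene, read 7.58 and 8.06 against 5.45 and 6.58, and P2rx4, an ATP-gated ion channel gene, 6.94 and 7.49 against 4.90 and 5.95. In Capns1, Kyat1 and P2rx4 the 2 knockout arrays were more than 1 log2 unit apart, with replicate 1 the lower. The tenth of the lowest was BC107364, at 6.42 and 6.20 against 4.75 and 4.30. Of these 10 genes, Cyb5r3, Lhpp and Capns1 were also called after quantile normalization, while Nprl2, Ttll1, Myl9, Abhd14b, Kyat1, P2rx4 and BC107364 were not (adjusted p from 0.0509 to 0.122). Over all 117 genes that fell, 25 were called there.

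Replicate 1 of the knockout was the further from wild type in most genes that fell: it lay beyond replicate 2 in 101 of the 117 genes that fell, with median distances from the wild-type mean of −1.52 and −1.15. For the 19 genes that rose the count was 10, and the medians were 1.13 and 1.00.

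Genes with the smallest adjusted p were picked out after their values were seen. Besides Snap91 they were Rps9, Atp5d, Pebp1 and Crip2, each at a limma adjusted p of 0.00736. Rps9, a small-subunit ribosomal protein gene, read 10.46 and 10.60 in wild type and 9.20 and 8.76 in the knockout. Atp5d, a subunit gene of mitochondrial ATP synthase, read 9.56 and 9.92 against 8.32 and 8.11. Pebp1, the gene of an inhibitor of RAF kinase signalling, read 8.86 and 9.50 against 7.35 and 7.59, and Crip2, a LIM-domain protein gene, 7.51 and 7.85 against 6.02 and 6.23. In Rps9 and Atp5d replicate 2 of the knockout was the lower array. All 4 were also called after quantile normalization, with differences of −1.59, −1.41, −1.41 and −1.08.

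Further genes of known function that fell, also chosen after their values were seen, included lysosomal and membrane genes. Ctsd, the gene of the aspartic protease cathepsin D, read 11.66 and 11.80 against 10.86 and 10.88 (limma adjusted p = 0.0358), with the knockout arrays closer to each other than the wild-type ones. Glb1, the lysosomal beta-galactosidase gene, fell by 1.68 log2 units (0.0227), and Mfsd2a, a lysophospholipid transporter gene, by 1.60 (0.0199). Pfn1, the gene of the actin-binding protein profilin, read 10.98 and 11.24 against 9.37 and 9.58 (−1.63 ± 0.25, 0.0175).

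Some of the largest negative differences belonged to genes whose knockout arrays were far apart, and these did not pass. Capza1, an actin capping protein subunit gene, read 9.54 and 10.01 in wild type and 7.49 and 4.96 in the knockout, and its difference of −3.55 ± 0.84 did not pass (limma adjusted p = 0.0629). Rpl29, a ribosomal protein gene, read 6.91 and 8.41 against 6.16 and 4.08 (0.105), and Arf1, a vesicle-trafficking GTPase gene, 9.13 and 9.52 against 6.73 and 7.79 (0.128). Ncoa4, a ferritinophagy receptor gene, read 6.80 and 6.35 against 2.71 and 6.09 (0.133), so that replicate 1 made nearly all of its difference. Aldh3b2, a lipid-aldehyde dehydrogenase gene, had closer knockout arrays, at 10.45 and 10.54 against 8.32 and 8.76 (−1.96 ± 0.45, 0.0596).

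The sebaceous lipid genes, which make the gland's wax esters, triglycerides and long-chain fatty acids, leaned lower in the knockout with no member called. Of 36 measured genes, 30 had a negative difference and 9 were separated lower. By limma 17 had an unadjusted p under 0.05 and 0 were called. Over all genes, 7338 of 18784 were negative and 19.4% had an unadjusted p under 0.05. The list's median was −0.45 against 0.14 over all genes. Its median wild-type level was 8.28, and all genes at levels 7 to 8 and 8 to 9 had medians of −0.28 and −0.15. Elovl3, a very-long-chain fatty acid elongase gene typical of sebocytes, read 6.89 and 8.02 against 5.45 and 5.74 (−1.86 ± 0.46, limma adjusted p = 0.0699). Acly, which supplies cytosolic acetyl-CoA, read 8.97 and 9.22 against 6.93 and 8.44 (0.085), Dgat2, the last step of triglyceride synthesis, 7.73 and 7.62 against 6.23 and 6.67 (0.087), and Fa2h, a fatty acid 2-hydroxylase gene, 10.78 and 10.73 against 9.97 and 10.13 (0.1). No knockout array of these 4 genes reached a wild-type array, which also held for 18.4% of all genes. The most abundant members did not share the difference: Scd1, the stearoyl-CoA desaturase, had means of 12.5 and 12.5, and Far1, a fatty acyl-CoA reductase of wax synthesis, differed by +0.45. Awat2, the wax synthase, differed by −0.16 and the regulator Pparg by −0.07.

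The 11 measured sebocyte markers, all of which are also in the lipid list, had a median of −0.71 with 4 separated lower, among them Mc5r, the melanocortin receptor of sebaceous glands (−1.10, limma adjusted p = 0.199), and Cidea, a lipid droplet protein gene (−1.15, 0.201). Fewer sebocytes and less of these transcripts per cell cannot be told apart in whole-gland RNA. After quantile normalization the sebocyte median was −0.71 and that of the lipid list −0.45.

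The genes of cholesterol synthesis had the lowest median of the 33 lists, −0.83, and again 0 of their 19 measured members were called by limma (11 at an unadjusted p under 0.05). Of the 19, 18 differed negatively and 7 were separated lower. Their median wild-type level was 9.09, and all genes at levels 8 to 9 and 9 to 10 had medians of −0.15 and −0.04. Fdps, which makes farnesyl diphosphate, read 10.21 and 10.68 against 9.05 and 9.42 (−1.21 ± 0.27, limma adjusted p = 0.0504), and Fdft1, squalene synthase, 7.66 and 8.51 against 6.59 and 6.67 (−1.45 ± 0.32, 0.0506). The mevalonate-pathway genes Pmvk, Mvk and Mvd and the lanosterol synthase gene Lss differed by −1.53, −1.34, −1.04 and −1.48. The groups did not overlap in any of them, as in 18.4% of all genes in this direction. Cyp51 and Msmo1, which act after lanosterol, differed by 0.00 and +0.22. The list's median after quantile normalization was −0.63, with 1 member called there.

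Glutathione and NRF2 genes, which conjugate and detoxify reactive chemicals, had a median of −0.51. Of 33 measured, 25 were negative, 5 were separated lower, 12 had an unadjusted p under 0.05 and 0 were called by limma. Their median wild-type level was 8.12, and all genes at levels 7 to 8 and 8 to 9 had medians of −0.28 and −0.15. Gstp1, a glutathione transferase gene, read 9.45 and 10.14 against 7.50 and 8.40 (−1.84 ± 0.41, limma adjusted p = 0.0525). Gstm1, of the mu class, read 8.94 and 8.66 against 7.18 and 7.89 (−1.26 ± 0.28, 0.0504), and Gss, glutathione synthetase, 6.93 and 7.48 against 5.66 and 6.14 (0.0599). Gstp1 has close relatives, whose sequences were not compared here. Gstp3, of the same class and outside the list, was called lower at 6.84 and 7.24 against 5.90 and 5.47 (0.0215). Hmox1, haem oxygenase 1, and Nfe2l2, which encodes NRF2 itself, differed by −0.89 and −0.88, and neither was called. Mgst1 and Prdx1 lay above wild type by 0.41 each.

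Of the epithelial lists, the basal keratinocyte markers were lower in median, at −0.50, but at 0.03 with the range of each array as a covariate. Of 11 measured, 9 were negative, 0 were called by limma and 3 had an unadjusted p under 0.05. Their median wild-type level was 6.57, and all genes at levels 6 to 7 had a median of −0.29. Krt5 read 9.51 and 9.37 against 7.97 and 8.61 and its partner keratin Krt14 10.39 and 10.30 against 8.93 and 9.70 (limma adjusted p = 0.0558 and 0.0833). The 24 suprabasal and cornified-layer genes had a median of 0.10, near that of all genes, with 14 positive, 10 negative and 0 called by limma (3 unadjusted). Krt17, a stress-associated keratin, was the separated one of these (8.64 and 8.13 against 6.51 and 7.70, limma adjusted p = 0.146), while Krt1 and Krtdap, genes of the differentiated layers, differed by 0.67 and 0.30. The median of the suprabasal list changed sign under 5 of 16 alternative settings, quantile normalization and median centring among them.

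**Figure D3:**
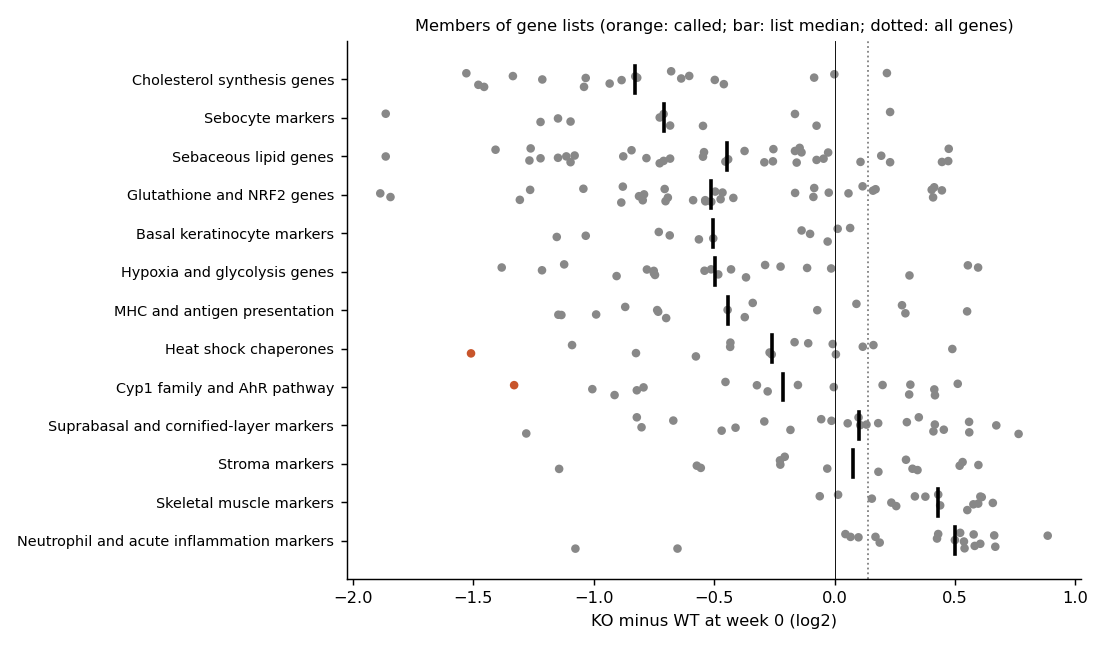
Knockout minus wild-type difference at week 0 (log2) of the members of 13 gene lists, 1 point per gene, with the list medians as black bars, called genes in orange and the median of all genes (0.14) as a dotted line. Cholesterol and sebocyte genes lie furthest to the left, and the muscle and neutrophil markers, which are mostly at low levels, to the right.

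Other pathway lists gave 1 call or 0. Of 15 heat shock chaperones, Hspa8, the constitutive HSC70, fell from 11.94 and 11.84 to 10.53 and 10.23 (−1.51 ± 0.29, limma adjusted p = 0.0311), and the list's median was −0.26, or −0.01 after quantile normalization. Of 26 p53 and DNA damage genes, Cdkn1a, which encodes the cell cycle inhibitor p21, fell from 8.99 and 9.31 to 7.98 and 8.37 (−0.97 ± 0.20, 0.0412), around a list median of −0.11 that became 0.02 after quantile normalization. In the hypoxia and glycolysis list 17 of 20 differences were negative with a median of −0.50, which ran from −0.93 to −0.04 over the alternative settings. The list's median wild-type level was 7.28, and all genes at levels 7 to 8 had a median of −0.28. The glucose transporter gene Slc2a1 read 8.35 and 8.55 against 6.69 and 7.45 (0.0503), and the glycolytic enzyme gene Aldoa 10.10 and 10.02 against 8.64 and 9.23 (0.0959). The cell cycle list had a median of −0.31 over 35 genes, the retinoid list −0.39 over 24 and the androgen and steroid list −0.03 over 22, each with 0 calls by limma (8, 9 and 5 genes unadjusted). After quantile normalization these medians were −0.09, −0.24 and −0.16. All genes at levels 6 to 7, where the cell cycle and retinoid lists had their median wild-type levels, had a median of −0.29. Interferon-stimulated genes had a median of 0.17 over 21 genes and antigen presentation genes −0.44 over 15, with 0 calls in either (2 and 3 unadjusted). Their median wild-type levels were 4.91 and 7.52. All genes at levels 4 to 5 and 7 to 8 had medians of 0.32 and −0.28.

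Circadian and immediate-early genes, which shift with the hour and the handling of the tissue, had medians of −0.01 and −0.16 with 0 limma calls in 19 and 26 genes (3 unadjusted in each), and both medians changed sign when wild-type replicate 1 was left out. Nr1d1, a clock repressor, read 8.76 and 7.84 in wild type and 7.02 and 7.76 in the knockout, and its relative Nr1d2 8.49 and 8.11 against 9.07 and 8.90.

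Markers of other cell types that a dissected gland can hold gave 1 call over all lists. Over the 15 skeletal muscle genes, 14 were positive with a median of 0.43, and the array means were 4.27 and 4.27 in wild type and 4.69 and 4.62 in the knockout. Their median level of 4.07 lies in the range where all genes had medians of 0.32 to 0.38, and the list's median was 0.15 after quantile normalization. The 19 neutrophil and acute inflammation genes had 17 positive differences and a median of 0.50, with array means of 4.47 and 4.26 in wild type and 4.65 and 4.68 in the knockout; its median became 0.15 after quantile normalization and −0.01 with array range as a covariate. Lcn2, the most abundant member, went the other way at 10.42 and 9.97 against 8.34 and 9.89. Macrophage, T and NK cell, mast cell, stroma, endothelial and fat cell lists had medians between −0.23 and 0.17, each of which changed sign under at least 1 alternative setting, and 0 of their members were called by limma. Nerve and B or plasma cell markers had medians of 0.47 each, which became 0.14 and 0.13 after quantile normalization, and red cell markers 0.30 over 3 genes, which became 0.17. The secreted lipocalins and the luminal markers had medians of 0.36 and 0.23, which became −0.44 and −0.12 with a filter on low values. In the smooth muscle list, at a median of −0.03, Myl9 fell (above). Acta2, smooth muscle actin, read 8.26 and 8.27 against 4.98 and 7.43 (limma adjusted p = 0.135), while Myh11 and Des, which mark mature smooth muscle, had wild-type means of 5.46 and 3.98 and differed by 0.14 and 0.55. The mean of the 10 smooth muscle genes was 4.96 and 5.29 in the knockout, both below the wild-type arrays, of which the lower was at 5.31. The list's median ran from −0.74 to 0.17 over the alternative settings and changed sign in 2 of them, and the part of smooth muscle content in the Myl9 difference was not tested.

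Genes near the targeted locus were described as a group. Of the 100 measured genes nearest to Cyp1a1 in the RefSeq order of build GRCm38.p6, 50 on each side, 1 was called (1.0%, against 0.724% of all genes), and their median difference was 0.12. The called gene was Mpi, the seventh on one side, which encodes phosphomannose isomerase and read 8.51 and 9.12 against 7.16 and 7.65 (−1.41 ± 0.30, limma adjusted p = 0.0477). Chromosome 9 as a whole had 15 calls among 1102 genes (1.36%), Nprl2, Abhd14b and Snap91 among them, the highest share of the chromosomes. The next were chromosomes 10 (1.24%) and 5 (1.2%), and no test was made of these shares.

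The same genotypes could be compared in 16 other mice at weeks 4 to 16, all of which had eaten BaP. There, over the mean of the 4 weeks, 1317 genes were called (7.01%), 327 higher (1.74%) and 990 lower (5.27%). Without the low-range knockout array of week 12 there were 2185 calls, and 282 with all 30 arrays. Of the 117 genes that had fallen at week 0, 113 were called lower again (96.6%), and all 117 had the same direction, with a median of −0.81 against −1.34 at week 0. Of the 19 that had risen, 18 had the same direction and 3 were called higher again: Snap91, Arhgap4 and Olfr1346. Their median was 0.24 against 1.05. Tdg was the gene that changed direction, at −0.11 in the later mice (limma adjusted p = 0.627). Over all genes, 15503 of 18784 had the same direction in both comparisons, and 1279 were called with it in the later mice (6.81%). The difference followed level there too. By week 0 level, its median over all genes was +0.29 up to 4, +0.15 between 4 and 5 and −0.17 between 6 and 7. These medians have the same signs as at week 0. The 2 comparisons share no array, but they come from 1 fit with 1 spread per gene and from arrays whose label numbers also differ by genotype.

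**Figure D4:**
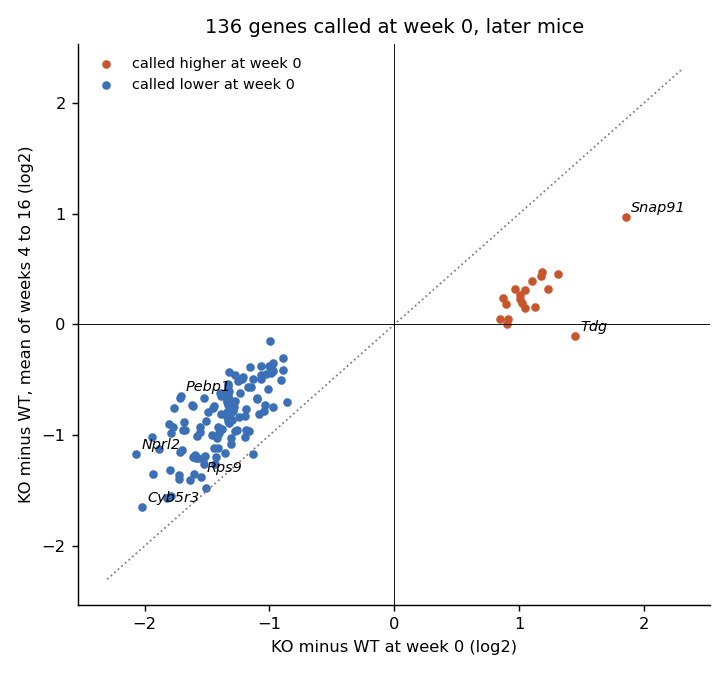
Knockout minus wild-type difference of the 136 genes called at week 0 (log2, horizontal) against the mean difference in the mice of weeks 4 to 16 (log2, vertical), with genes called higher in orange and lower in blue and equality as a dotted line. The genes called lower lie below 0 in both, and of those called higher only Snap91 is above 0.5 in the later mice.

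In the test of whether the genotype difference itself changed between week 0 and weeks 4 to 16, limma called 0 genes (803 at an unadjusted p under 0.05, or 4.27%). Snap91 stood 0.97 ± 0.12 above wild type in the later mice (limma adjusted p = 0.000487) and Cyb5r3 1.65 below (adjusted p = 1.89e-05). Rps9 gave −1.38 ± 0.10 (1.01e-05) and Hspa8 −1.48 ± 0.14 (6.2e-05), close to their week 0 differences. Pebp1 differed by −0.65, less than at week 0, with week 8 at 0.11 and week 16 at −1.27. The calls were uneven over single weeks, with 0 genes by limma at week 4 (770 unadjusted, 4.1%), 0 at week 8 (388 unadjusted, 2.07%), 615 at week 12 (3.27%) and 293 at week 16 (1.56%).

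Some gene lists with 0 calls at week 0 had calls in the later mice. Of the cholesterol genes 9 were called lower and 0 higher, with a list median of −0.55. Of the sebaceous lipid genes 13 were called lower and 1, Far1, higher, with a median of −0.28. Of the glutathione and NRF2 genes 5 were lower and 1, Mgst1, higher. Gstp1 differed by −1.33 ± 0.21 (limma adjusted p = 0.00196), and Gstm1 differed by −0.39 ± 0.14 (0.103).

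Cyp1b1 was called in the later mice and not at week 0. In wild type it stayed between 6.17 and 6.77 from week 4 on. In the knockout it read 6.66 and 6.69 at week 0 and 7.71 to 8.82 afterwards, a difference from wild type of 1.96 ± 0.14 (limma adjusted p = 1.01e-05). Within the knockout, the later mice stood 1.80 ± 0.22 above week 0 (adjusted p = 0.0172). The test of the change in the genotype difference gave an unadjusted p of 0.00012 and did not pass after adjustment (0.999993).

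Stfa1 and Stfa3, which missed the threshold at week 0, were called in the later mice. Stfa1 stood 3.54 ± 0.28 above wild type in the later mice and Stfa3 2.04 ± 0.18 (limma adjusted p = 1.35e-05 and 1.89e-05). In the knockout Stfa1 lay between 7.20 and 7.68 in 5 of the 8 later arrays, close to its week 0 values, and at 9.14, 10.47 and 9.32 in the other 3, which were 1 of week 12 and both of week 16. In wild type it stayed between 3.09 and 6.39 at all weeks. Csta1, which was not called at week 0, was higher in the later mice by 1.39 (0.000229).

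**Figure D5:**
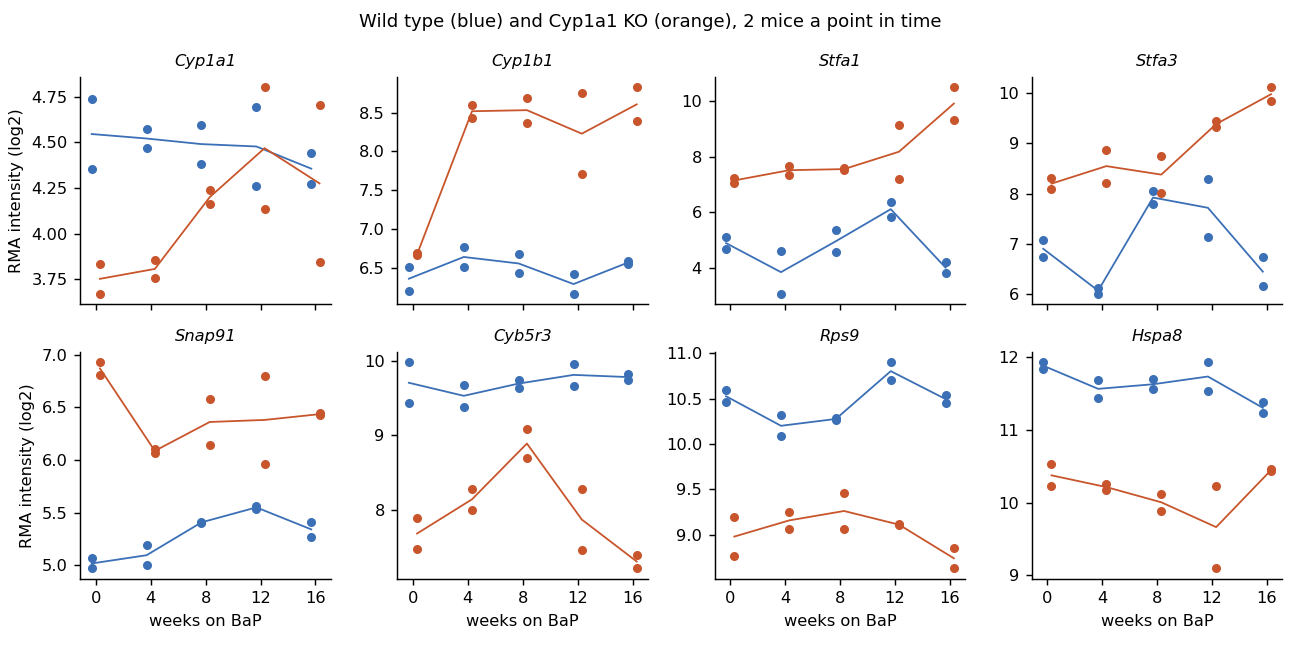
RMA intensity (log2) of 8 genes by weeks on BaP in wild type (blue) and Cyp1a1 knockout (orange), with 1 point per mouse and lines through the means of 2. Stfa1, Snap91, Cyb5r3, Rps9 and Hspa8 have apart means from week 0 on, while the means of Cyp1b1 are within 0.31 at week 0 and apart by 1.88 at week 4.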

How the data were processed

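The labels' protocols describe RNA from frozen glands, amplified with a whole-transcript kit and biotin-labelled. The deposited values are log2 intensities by RMA, per the submitters' processing notes (version not given in the sources used here), for 21212 probe sets on 30 arrays, and were used on that scale. Of these, 18786 carried 1 gene symbol, and 18784 genes remained after taking the probe set with the highest mean. limma 3.58.1 in R 4.3.3 was fitted with 1 mean per group of 2 mice on the 20 wild-type and knockout arrays (10 residual and 4.91 prior degrees of freedom). Tests were two-sided with Benjamini-Hochberg adjustment over all genes, ± is the fit's standard error, and an exact permutation test of 2 against 2 cannot go below 0.333. The number of arrays limits precision. On simulated data at week 0 over 18784 genes, 29 of 100 changes of 1 log2 unit and 85 of 100 of 2 were recovered, with 2 false calls. The simulated noise was drawn for each gene alone, with no difference in range between arrays. It therefore gives no estimate of false calls in the real arrays. The deviations of same-numbered replicates correlated at −0.25 to 0.08 over genes, and no pairing was assumed. Whether same-numbered mice shared a litter or day was not tested. Members and lists (575 of 640 list genes measured) were chosen with earlier results of these data known. Named were the Cyp1 genes, the 10 highest and lowest called genes, the 10 largest separated differences each way, and up to 4 genes per list and 5 neighbours of Cyp1a1 with the smallest p, not all of which are printed. Other genes named were chosen after their values were seen.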

Additional observations from a re-analysis of the deposited data

How the results depend on the processing

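The week 0 calls depended strongly on the arrays that set the spread. Against 136, there were 0 with all 30 arrays in the fit, 0 with the 4 week 0 arrays alone, 36 after quantile normalization, 279 after median centring, 296 with a filter on low values and 64 with the replicate number as a block. Leaving out the low-range knockout array of week 12 gave 2926, and with quantile normalization added 947 (346 higher, 601 lower). The range of each array as a covariate gave 651 (357 higher, 294 lower; both added after seeing the data). Leaving out each week 0 array gave 0 to 972 calls and 362 to 1713 separated genes, and quantile normalization gave 240 separated genes with or without that week 12 array. For weeks 4 to 16, 1317 calls became 282 with all 30 arrays, 2185 without the low-range array and 2050 when quantile normalization was added. For the change in the difference, 0 became 1 without the low-range array, 1 with quantile normalization added, and 0 to 2 when leaving out week 0 arrays. The causes were not tested. Of 79 genes examined, 78 kept their direction under every setting that measured them. Many had been named for their differences in the same arrays, so this is not an independent check. Csta1 was −0.12 without knockout replicate 1 and 0.85 without replicate 2. The block changed no direction of these genes, and whether its numbers pair the mice was not tested.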
